A study of Mus musculus with 18 samples.

Results

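The data described here are the expression values of 10 genes of the ATF4 stress and serine metabolism group in bone marrow-derived macrophages (BMDMs) of mice with and without prolyl endopeptidase (PREP), a serine peptidase that cleaves short peptides after proline. The 10 genes were taken as a list of symbols, Atf4, Ddit3, Trib3, Asns, Chac1, Sesn2, Psat1, Phgdh, Shmt2 and Mthfd2. This list, the further lists below and the tests were chosen with earlier results of these data known. Each of the 10 genes was found once among the 16314 genes of the count table. All 10 passed the filter on low counts that left 12021 genes for testing. BMDMs were grown from femoral bone marrow of Prep-/- mice and of their Prep+/- littermates on a C57BL6/J background for 7 days in medium that held M-CSF at 50 ng/ml. They were then kept without a stimulus (M0), given 50 ng/ml LPS (M1), or given IL-4 and IL-13 at 20 ng/ml each (M2) for 24 hours. Each of the 6 groups held 3 libraries of bulk RNA-seq, 18 in all. The controls are heterozygous, so both genotypes carry at least 1 disrupted Prep allele and no wild-type library was part of the comparison. The study's methods call the 3 libraries of a group biological replicates, but the labels do not say whether they came from separate animals.

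ATF4 is a basic leucine zipper transcription factor at the centre of the integrated stress response. Kinases that sense amino acid shortage, unfolded proteins, viral RNA or haem shortage phosphorylate the translation factor eIF2α, general translation slows, and the ATF4 message is translated more. ATF4 then raises genes for amino acid supply and for coping with stress, among them the genes that make serine from a glycolytic intermediate and that pass its carbon to folate in mitochondria. In macrophages, serine and folate metabolism supplies nucleotides, glutathione and methyl groups. ATF4 is controlled largely at translation, so a change in its mRNA is not a measure of its protein.

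The libraries held 19068237 to 22598279 counts over 13096 to 13807 detected genes. Prep itself ran from 551 to 900.0 normalized counts in the 9 Prep+/- libraries and from 31.3 to 68.1 in the 9 Prep-/- libraries, with no overlap. A normalized count is a count divided by the library's effective size and multiplied by the mean effective size, so that it reads like a count of a library of average depth. The summed level of 8 macrophage markers, in CPM (counts scaled to a fixed library total), differed by genotype without overlap in each state. It was 19002 to 22408 in Prep+/- and 30386 to 48180 in Prep-/- cells in M0, 45757 to 47208 against 31000 to 37043 in M1, and 10027 to 12203 against 13889 to 19565 in M2. In contrast, 4 erythroid, 1 T cell and 2 mast cell or basophil markers each summed to at most 0.185 CPM. Of the 4 B cell markers listed, 3 were in the count table. All 3 were detected in Prep+/- M0, only 1 in Prep-/- M0, and 2 in each M1 and M2 group. In M0, granulocyte precursor markers summed to 26.5 to 37.1 CPM for Prep+/- cells against 57.3 to 127 CPM for Prep-/- cells, while B cell markers ran from 3.01 to 4.79 against 8.66 to 11.5 CPM. In M1 the granulocyte order was the reverse, 72.6 to 135 against 46.7 to 64.1 CPM, and B cell markers were at 2.06 to 2.59 against 5.09 to 6.96. In M2 granulocyte precursor markers overlapped at 21.7 to 26.4 and 26.0 to 38.3 CPM, as did B cell markers at 1.56 to 2.81 and 0.959 to 4.45. Stromal markers summed to 0.0839 to 21.2 CPM, dendritic cell markers to at most 2.64 and hepatocyte markers to at most 13.8 CPM, in 1 Prep-/- M0 library. The part of these markers' cell types in the results was not tested. The third Prep-/- M0 library and the third Prep-/- M2 library stood apart from the other 2 of their groups, with a chi-square per degree of freedom of 106 to 114 over genes against 9.50 to 47.3 for the remaining replicate pairs. Where a log2 fold change of the 10 genes moved by over 1.5 times without 1 of these libraries, both values are given. In bulk RNA, a change in the share of cells that express a gene and a change in the level per cell cannot be told apart.

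Several of the 10 genes are textbook targets of ATF4 through a composite site for ATF4 and C/EBP proteins, and the site is shown here because of that background. The letters TGATGNAA were searched on both strands from 250 bases before to 50 bases after the RefSeq transcription start, a table that held such a window for all 10 genes and for 12821 genes of the count table. The letters were present for 3 of the 10 genes (Trib3, Asns and Chac1) and for 3.03% of all genes with a window. A gene with several RefSeq windows was counted once, if any of them held the letters. With the canonical starts of GENCODE M39, which held windows for 15667 genes, they were present in 2 of the 10 (Ddit3 and Chac1) and in 2.65% of all, so the number depends on which start is used. A match is a description of the letters and does not show that a factor bound there. The 4 genes with a match are given as 30 bases of the gene's own strand, with the 8 matching letters in capitals, which read as the reverse complement of the searched letters in Trib3, Chac1 and Ddit3. The sequences were read from GRCm39.
Trib3: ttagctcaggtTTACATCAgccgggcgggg
Asns: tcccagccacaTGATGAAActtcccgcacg
Chac1: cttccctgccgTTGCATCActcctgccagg
Ddit3: gttgccaaacaTTGCATCAtccccgccccc
The Trib3 stretch lies at chr2:152185948-152185977 on the minus strand, and its match began 15 bases after the RefSeq start. The Asns stretch is at chr6:7693214-7693243 on the minus strand, with the match beginning 23 bases before that start. The Chac1 stretch is at chr2:119181519-119181548 on the plus strand, with the match 193 bases before the RefSeq start. The Ddit3 stretch is at chr10:127126350-127126379 on the plus strand, with the match 199 bases before the GENCODE start.

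The 10 genes are protein coding and do not overlap one another, with 3 pairs on a shared chromosome. Ddit3 and Shmt2 lie near each other on chromosome 10, which also holds Prep (chr10:44943130-45043294). In GRCm39, Atf4 spans chr15:80139372-80141745, Ddit3 chr10:127124268-127132163 and Chac1 chr2:119180757-119184866 on the plus strand. On the minus strand, Trib3 spans chr2:152179337-152191958, Asns chr6:7671667-7728461, Sesn2 chr4:132219335-132237815, Psat1 chr19:15882039-15924701, Phgdh chr3:98220484-98255047, Shmt2 chr10:127352266-127358323 and Mthfd2 chr6:83282673-83302890. Ddit3 overlaps Mars1, the methionyl-tRNA synthetase gene, on the opposite strand, and their transcripts share 574 identical bases. The libraries came from a stranded kit, but whether strand was used in counting is not given in the sources used here, so reads in that stretch could count towards either gene. Phgdh has 25 other genes in the annotation with stretches at least 90% identical to it, none of which is in the count table, so reads from such copies could have been counted towards Phgdh.

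The genes differ widely in level. Per kilobase of the canonical transcript, Atf4 was the highest in unstimulated Prep+/- cells, at 182 ± 4.76 CPM per kilobase (SD, n = 3). Shmt2 at 34.5 ± 0.586, Mthfd2 at 33.3 ± 5.78 and Psat1 at 31.4 ± 3.90 followed and overlapped one another over libraries. Below them came Phgdh at 19.6 ± 1.84, then Ddit3 at 13.2 ± 0.849 and Asns at 12.7 ± 1.27, which overlapped, then Sesn2 at 5.66 ± 0.630 and Trib3 at 4.28 ± 0.951, which also overlapped, and Chac1 at 1.46 ± 0.526. Atf4 stayed the highest of the 10 in each of the 6 groups, and Chac1 the lowest.

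To ask how loss of PREP alters these genes in unstimulated cells, Prep-/- M0 was compared with Prep+/- M0. Of the 10 genes, 8 were lower and none was higher, with edgeR and DESeq2 alike and also at an unadjusted p under 0.05, where a call is an adjusted p under 0.05 together with a change over 1.5-fold (edgeR quasi-likelihood test, Benjamini-Hochberg adjustment over 12021 genes). Of all genes tested, 17.2% were called lower and 15.4% higher, or 2065 and 1848 genes, which became 2664 and 1338 when libraries were scaled by their totals alone. The median log2 fold change was -1.91 over the 10 genes and 0.02 over all genes. The exceptions were Ddit3 and Sesn2.

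Atf4 itself stood at 6502, 6788 and 6819.9 normalized counts in the 3 Prep+/- M0 libraries and at 2674, 2063 and 3583 in the 3 Prep-/- M0 libraries. The groups did not overlap, and Atf4 was 2.42-fold lower (log2 fold change -1.27 ± 0.17 SE, adjusted p = 2.41e-05, edgeR). Ddit3 encodes CHOP, a C/EBP-family factor that acts with ATF4 under lasting stress. Its counts were 290.4, 276 and 255 against 393, 254 and 391. The groups overlapped and Ddit3 was not called (0.34 ± 0.18, adjusted p = 0.141).

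Trib3 encodes a pseudokinase that is a target of ATF4 and CHOP and restrains them in turn. It fell from 142, 205 and 221 counts to 27.1, 39.9 and 78.1, 3.92-fold without overlap (-1.97 ± 0.35, adjusted p = 0.000257, edgeR). Chac1, whose product breaks down glutathione, was near the floor of detection in the Prep-/- cells. Prep+/- M0 libraries gave 29.9, 63.5 and 60.2 normalized counts of it, and the Prep-/- M0 libraries 1.004, 0.886 and 5.86. The latter rest on 8 raw counts in all against 178, a ratio of 20.5 with a 95% interval of 10.2 to 48.3 that covers counting error alone. The fitted log2 fold change was -4.27 ± 0.70 (adjusted p = 0.000122, edgeR), and it was -5.61 without the third Prep-/- M0 library, which held 6 of the 8 counts.

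Sesn2 encodes sestrin 2, a stress protein that senses leucine and restrains mTORC1. It was at 458, 668 and 172 counts in Prep-/- M0, against 365, 451 and 438 in Prep+/- M0. The Prep-/- values lay on both sides of the controls, and Sesn2 was not called (0.05 ± 0.32, adjusted p = 0.908, edgeR).

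Asns, which makes asparagine from aspartate and glutamine, stood at 1190.4, 1305 and 1452 counts in Prep+/- M0 and at 119, 158 and 244 in Prep-/- M0. It was 7.57-fold lower with no overlap (-2.92 ± 0.40, adjusted p = 2.50e-05, edgeR). Among the 10, only Mthfd2 and Chac1 had a more negative log2 fold change.

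The serine genes were lower as well. Phgdh, which commits a glycolytic intermediate to serine synthesis, gave 852, 707 and 802 counts in Prep+/- M0, against 56.2, 146 and 355 in Prep-/- M0. It was 4.23-fold lower (-2.08 ± 0.40, adjusted p = 0.000458, edgeR), and the Prep-/- libraries spread over a wide range below the controls. Without the third Prep-/- M0 library its log2 fold change was -2.95. Psat1, the aminotransferase that acts next, fell from 1553, 1691 and 1977 to 286, 523 and 641 counts, 3.60-fold and without overlap (-1.85 ± 0.47, adjusted p = 0.00382, edgeR).

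The mitochondrial folate genes moved the same way. Shmt2, which takes a carbon from serine and leaves glycine, stood at 1701, 1645 and 1685 counts in Prep+/- M0, against 497, 501 and 644 in Prep-/- M0. Its groups were tight and did not overlap, and Shmt2 had the smallest adjusted p of the 10 in this comparison (3.06-fold lower, -1.62 ± 0.14, adjusted p = 7.44e-07, edgeR). Mthfd2, which oxidises the folate-bound carbon in the mitochondrion, was at 1185, 1641 and 1618 counts against 159.6, 166 and 256. It was 7.65-fold lower with no overlap (-2.94 ± 0.41, adjusted p = 2.86e-05, edgeR).

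**Figure D1:**
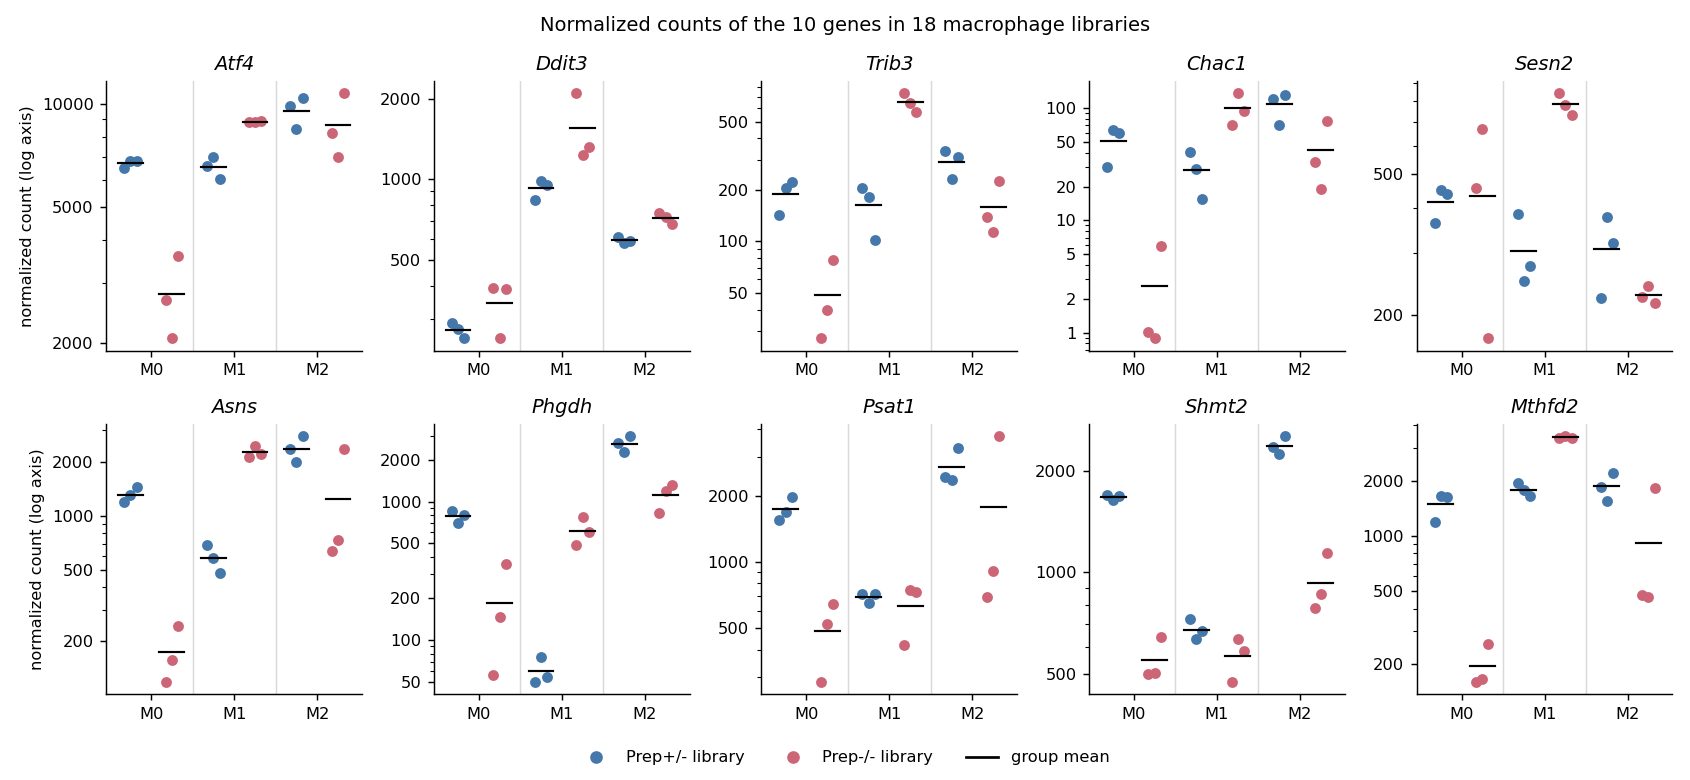
Normalized counts (log axis) of the 10 genes in each of the 18 libraries, blue for Prep+/- and red for Prep-/-, grouped as M0, M1 and M2, with black lines at group means. In M0 the red points of 8 genes lie below all blue points, in M1 the red points of 8 genes lie above all blue points, and in M2 1 red point each of Asns, Chac1, Psat1 and Mthfd2 lies above the lowest blue point. The share of all tested genes that separate in this way was not counted. Among those separated in M1, Atf4 and Mthfd2 were not called.

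Under LPS the genotype difference pointed the other way for most of the genes. In M1, 6 of the 10 were higher in Prep-/- cells and none was lower, beside 12.3% of all genes called higher and 10.2% called lower. Of these 6, Trib3, Asns, Chac1 and Phgdh had been called lower in M0, while Ddit3 and Sesn2 had not been called there. DESeq2 called 7 higher and none lower, and at an unadjusted p under 0.05 edgeR gave 8 and none. The median log2 fold change was 1.16 over the 10 genes and 0.04 over all genes. Atf4 was at 6575, 6967 and 6021 normalized counts in Prep+/- M1 and at 8845, 8814 and 8872 in Prep-/- M1. The groups did not overlap, but Atf4 was not called (0.44 ± 0.17, adjusted p = 0.0523, edgeR).

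Ddit3 rose from 837, 985 and 949 counts in Prep+/- M1 to 2094, 1234 and 1325 in Prep-/- M1, which was 1.68-fold (0.75 ± 0.18, adjusted p = 0.00449, edgeR). The first Prep-/- M1 library was the highest, and without it the difference was 0.46 on the log2 scale (adjusted p = 0.0421), under the fold minimum. Trib3 was at 204, 182 and 103 counts in Prep+/- M1 and at 734, 640.3 and 574 in Prep-/- M1, so its M0 order was inverted (3.98-fold higher, 1.99 ± 0.32, adjusted p = 0.000376, edgeR).

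Chac1 stood at 41.0, 28.6 and 15.4 counts in Prep+/- M1 and at 70.4, 136 and 93.7 in Prep-/- M1. It was 3.49-fold higher with no overlap (1.80 ± 0.50, adjusted p = 0.0107, edgeR), a call that was lost without the third Prep+/- M1 library (1.51, adjusted p = 0.0540). Sesn2, uncalled in M0, was 2.59-fold higher in M1, at 844, 784 and 732 counts against 385, 249.8 and 276 (1.37 ± 0.32, adjusted p = 0.00432, edgeR). Asns was at 694, 585 and 481 counts in Prep+/- M1 and at 2132, 2466 and 2214 in Prep-/- M1, 3.87-fold higher (1.95 ± 0.37, adjusted p = 0.00114, edgeR). For each of these 3 genes every Prep-/- M1 library lay above every Prep+/- M1 library.

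Among the serine and folate genes the M1 difference was uneven. Phgdh changed most of the 10, from 50.1, 74.9 and 53.9 counts in Prep+/- M1 to 486, 770.5 and 599 in Prep-/- M1, 10.4-fold (3.37 ± 0.45, adjusted p = 0.000100, edgeR). Psat1, the next enzyme of the same pathway, was at 717, 653 and 714 against 419, 745 and 731 counts, overlapping and uncalled (-0.14 ± 0.46, adjusted p = 0.836). The difference between the 2 enzymes was not itself tested. Shmt2 was at 727, 632 and 669 counts in Prep+/- M1 and 473, 635 and 584 in Prep-/- M1, also overlapping and uncalled (-0.26 ± 0.14, adjusted p = 0.161). Mthfd2 was at 1938, 1767 and 1642 against 3424, 3480.0 and 3422 counts. Its groups lay apart, but the call narrowly missed the threshold (0.95 ± 0.37, adjusted p = 0.0537, edgeR), and it was made under 6 of the 17 alternative settings.

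In M2 the difference was again towards lower values in Prep-/- cells, but less uniformly over libraries. Of the 10 genes, 3 were lower and none was higher, beside 9.82% of all genes called lower and 6.37% called higher, and the medians were -0.90 and 0.03. Scaling by library totals alone turned 1181 lower and 766 higher genes of the whole table into 1613 and 497. DESeq2 called 6 lower and none higher, as did edgeR at an unadjusted p under 0.05. Shmt2 was at 2367, 2244 and 2536 normalized counts in Prep+/- M2 and at 786, 860.0 and 1141 in Prep-/- M2. It was 2.56-fold lower without overlap (-1.36 ± 0.14, adjusted p = 1.21e-05, edgeR), the only M2 call that held whichever library was left out. Phgdh was at 2642, 2264 and 2952 counts against 833, 1194 and 1312, 2.35-fold lower and without overlap (-1.23 ± 0.37, adjusted p = 0.0229, edgeR). Chac1 was at 121, 71.0 and 132 counts against 33.0, 19.04 and 76.1, so that the third Prep-/- library overlapped the controls (2.51-fold lower, -1.33 ± 0.47, adjusted p = 0.0484, edgeR). Without that library the Chac1 value was -2.03.

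For the uncalled genes of M2 much depended on the third Prep-/- M2 library, which lay apart from the other 2 and closer to the Prep+/- cells. Asns was at 2364, 1987 and 2774 counts in Prep+/- M2 and at 635, 737 and 2377 in Prep-/- M2. Mthfd2 was at 1846, 1549.9 and 2187 against 472, 464 and 1814, and Psat1 at 2420.2, 2352 and 3301 against 691, 907 and 3706. In each of the 3 genes 2 Prep-/- libraries lay below all Prep+/- libraries and the third did not. Their log2 fold changes were -0.93 ± 0.36 (Asns, adjusted p = 0.0723), -1.02 ± 0.37 (Mthfd2, adjusted p = 0.0552) and -0.61 ± 0.45 (Psat1, adjusted p = 0.352). Without that library they were -1.78, -1.98 and -1.74, all called, and the number of the 10 genes called lower went from 3 to 7. Over all genes tested, the same step took those called lower from 1181 to 1581 and those called higher from 766 to 1046. Trib3 was at 338, 231 and 309.6 against 138, 113 and 225 counts (-0.88 ± 0.32, adjusted p = 0.0541), with no overlap but no call.

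Libraries with the same replicate number deviated together in M2, with a correlation of deviations of 0.249, 0.255 and 0.462 for numbers 1, 2 and 3. With the replicate number as a block over the 6 M2 libraries, 1137 of all genes were called lower and 753 higher, against 1181 and 766. Of the 10 genes, 6 were then called lower instead of 3. Trib3 (-0.92, adjusted p = 0.0184), Asns (-1.18, adjusted p = 0.0351) and Mthfd2 (-1.31, adjusted p = 0.0313) were added, and Chac1 (-1.46, adjusted p = 0.0173), Phgdh (-1.25, adjusted p = 0.00381) and Shmt2 (-1.37, adjusted p = 0.00231) kept their calls. Conversely, leaving out Prep+/- M2 replicate 1 or 3, or Prep-/- M2 replicate 1 or 2, ended the calls of Phgdh (adjusted p from 0.0520 to 0.107) and Chac1 (0.125 to 0.164), and leaving out the second Prep+/- M2 library added Trib3 (-1.06, adjusted p = 0.0473).

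The remaining 3 genes were not called in M2. Atf4 was at 9813, 8418 and 10404 counts in Prep+/- M2 and at 8209, 7010.0 and 10724 in Prep-/- M2 (-0.14 ± 0.17, adjusted p = 0.582), with overlapping groups. Ddit3 was at 609.8, 576 and 589.9 against 746, 725 and 682 counts (0.28 ± 0.18, adjusted p = 0.277), and Sesn2 at 223, 377 and 319 against 225, 242 and 216 (-0.43 ± 0.33, adjusted p = 0.367).

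**Figure D2:**
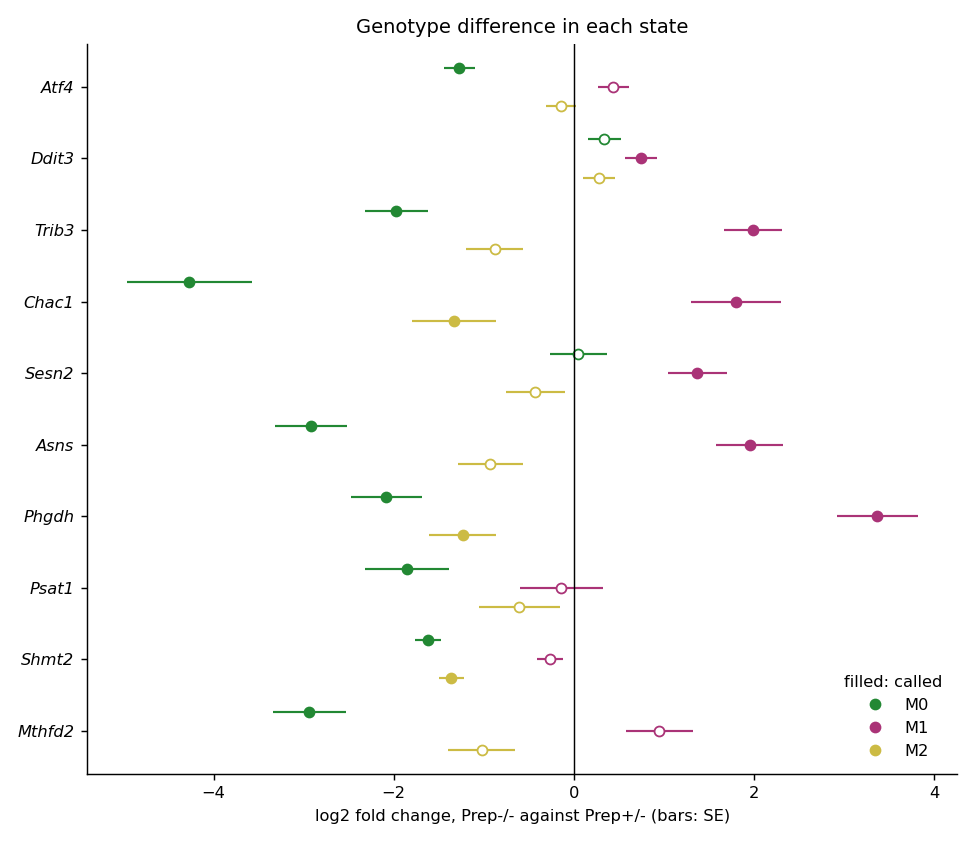
Log2 fold change of Prep-/- against Prep+/- (x axis, bars are SE) for the 10 genes in M0 (green), M1 (purple) and M2 (yellow), with filled points for called changes. To the left of 0 lie 8 filled green points, 6 filled purple points lie right of 0, and 3 filled yellow points lie left of 0.

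Because the genotype difference changed with the state, each gene's difference in M1 was tested against that in M0 as a contrast of 4 groups. The contrast was called higher for 8 of the 10 genes and lower for none, beside 12.0% and 9.15% of all genes (1440 and 1100, or 2187 and 644 with library totals alone). DESeq2 gave 8 and none, and edgeR at an unadjusted p under 0.05 gave 9 and none. The largest values were those of Chac1 (6.07 ± 0.86, adjusted p = 0.000167, edgeR), Phgdh (5.45 ± 0.60, adjusted p = 2.53e-05) and Asns (4.87 ± 0.55, adjusted p = 3.01e-05). Chac1 was at 7.40 and Phgdh at 6.31 without the third Prep-/- M0 library. Trib3 (3.96 ± 0.48) and Mthfd2 (3.88 ± 0.55) followed, and Atf4 gave 1.71 ± 0.24 (adjusted p = 0.000165). Shmt2 was also called, at 1.35 ± 0.20 (adjusted p = 0.000250), from genotype differences of -1.62 in M0 and -0.26 in M1. Its mean went from 1677 in M0 to 676 normalized counts in M1 in Prep+/- cells, and from 547 to 564 in Prep-/- cells. Sesn2 was at 1.32 ± 0.45 (adjusted p = 0.0422), and its call was lost when any of 8 single libraries was left out (adjusted p 0.0566 to 0.101). Psat1 (1.71 ± 0.65, adjusted p = 0.0641) and Ddit3 (0.41 ± 0.25, adjusted p = 0.253) were not called.

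The same contrast for M2 was called higher for 4 genes and lower for none, beside 4.53% and 4.13% of all genes. DESeq2 gave 4 and none, and edgeR at an unadjusted p under 0.05 gave 5 and none. These were Chac1 (2.94 ± 0.88, adjusted p = 0.0444, edgeR), Asns (1.99 ± 0.52, adjusted p = 0.0255), Mthfd2 (1.91 ± 0.54, adjusted p = 0.0345) and Atf4 (1.13 ± 0.24, adjusted p = 0.00900). Atf4 kept its call whichever library was left out. Asns lost it without any of 5 single libraries (adjusted p 0.0587 to 0.0704), Chac1 without any of 8 (0.0529 to 0.122) and Mthfd2 without any of 6 (0.0609 to 0.0878). Fitted on the 12 M0 and M2 libraries alone, 1 of the 10 genes was called, and none was when the test was made against a 1.5-fold change. Without the third Prep-/- M0 library, Phgdh (1.72, adjusted p = 0.0120) and Trib3 (1.62, adjusted p = 0.0303) were called too. Chac1 was then at 4.27. When the third Prep-/- M2 library was left out, Asns was at 1.13 (adjusted p = 0.0293) and Mthfd2 at 0.95 (0.0336), both still called, Chac1 was at 2.23 (0.122) and uncalled Psat1 went from 1.24 to 0.098. Both contrasts share the M0 libraries of both genotypes and are not independent.

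The response to LPS within each genotype gives the same data from the side of the stimulus. In Prep+/- cells, M1 differed from M0 by 1 gene called higher and 4 called lower, beside 16.7% and 20.9% of all genes (2011 and 2518, or 1052 and 4995 with library totals alone). The gene called higher was Ddit3, from a mean of 274 ± 17.6 to 924 ± 77.0 normalized counts (SD, n = 3), 3.37-fold (1.75 ± 0.19, adjusted p = 6.74e-07, edgeR). Phgdh fell 13.2-fold, from 787 ± 73.8 to 59.6 ± 13.4 counts (-3.72 ± 0.45, adjusted p = 3.17e-06). Psat1 (-1.33 ± 0.46), Shmt2 (-1.31 ± 0.14) and Asns (-1.16 ± 0.37) were the others called lower, each between 2.24-fold and 2.51-fold. The Asns call was lost without the third Prep+/- M1 library (adjusted p = 0.0514), and that of Psat1 without that library (0.0508), the second Prep+/- M1 library (0.0596) or the third Prep+/- M0 library (0.0649). Atf4 was at 6703 ± 175 and 6521 ± 475 counts and was not called (-0.04 ± 0.17, adjusted p = 0.859), nor was Mthfd2 (0.27 ± 0.37). The Mthfd2 groups all but touched, with a highest M0 value of 1641.11 and a lowest M1 value of 1641.55 normalized counts.

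In Prep-/- cells, LPS was accompanied by 8 genes called higher and none called lower, beside 20.9% and 21.0% of all genes (2518 and 2530, or 1709 and 3681 with library totals alone). DESeq2 gave the same counts, as did edgeR at an unadjusted p under 0.05. Chac1 went from 2.58 ± 2.84 to 99.9 ± 33.0 counts (log2 fold change 5.23 ± 0.68, adjusted p = 6.42e-06, edgeR) and Mthfd2 from 194 ± 53.9 to 3442 ± 32.8, 17.8-fold (4.15 ± 0.42, adjusted p = 4.98e-07). Trib3 rose 13.4-fold and Asns 13.1-fold, while Atf4 rose 3.19-fold, from 2773 ± 765 to 8844 ± 29.4 counts. The fitted Atf4 level of Prep-/- cells was 2.42-fold below that of Prep+/- cells in M0 and 1.36-fold above it, uncalled, in M1. Ddit3 rose 4.48-fold and Phgdh 3.33-fold. Sesn2 was called as well (0.86 ± 0.32, adjusted p = 0.0284), but the call was lost without Prep-/- M0 replicate 1 (adjusted p = 0.0504) or 3 (0.0833) or any of the 3 Prep-/- M1 libraries (0.0502 to 0.0814). Psat1 (0.39 ± 0.46) and Shmt2 (0.04 ± 0.14) were not called. The replicate numbers paired the samples here too (0.201, 0.169 and 0.259), and the block changed none of the 10 calls. Without the third Prep-/- M0 library, Chac1 was at 6.52 and Phgdh at 2.56.

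Under IL-4 and IL-13, Prep+/- cells had 2 genes called higher than in M0 and none called lower, beside 6.09% and 6.77% of all genes. DESeq2 gave 2 and none, and edgeR at an unadjusted p under 0.05 gave 6 and none. Phgdh rose 3.33-fold, from 787 ± 73.8 to 2619 ± 345 counts (1.74 ± 0.38, adjusted p = 0.00354, edgeR), and Ddit3 2.16-fold, from 274 ± 17.6 to 592 ± 16.9 (1.11 ± 0.18, adjusted p = 0.000342). Atf4 (0.51, adjusted p = 0.0457) and Shmt2 (0.51, adjusted p = 0.0167) passed the p threshold but not the fold minimum. Fitted on the 6 compared libraries alone, Asns, Chac1, Psat1 and Trib3 were called higher as well, which made 6. In Prep-/- cells 9 genes were called higher than in M0 and 1, Sesn2, lower, beside 14.7% and 15.5% of all genes. The increases ran from 0.76 on the log2 scale (Shmt2) to 4.01 (Chac1), with Asns at 2.85, Phgdh at 2.58, Mthfd2 at 2.24, Psat1 at 1.87, Trib3 at 1.72, Atf4 at 1.64 and Ddit3 at 1.05. Without the third Prep-/- M2 library, Asns was at 1.96, Mthfd2 at 1.26 and Chac1 at 3.28, and Psat1 (0.70, adjusted p = 0.0578) and Shmt2 (0.57, under the fold minimum) were no longer called. Without the third Prep-/- M0 library, Chac1 was at 5.32 and Phgdh at 3.43. The Sesn2 groups overlapped (-0.93 ± 0.33, adjusted p = 0.0290), and its call was lost without any of 4 single libraries (adjusted p 0.0565 to 0.208). The 4 comparisons with M0 share the M0 libraries of their genotype with the genotype comparison in M0.

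**Figure D3:**
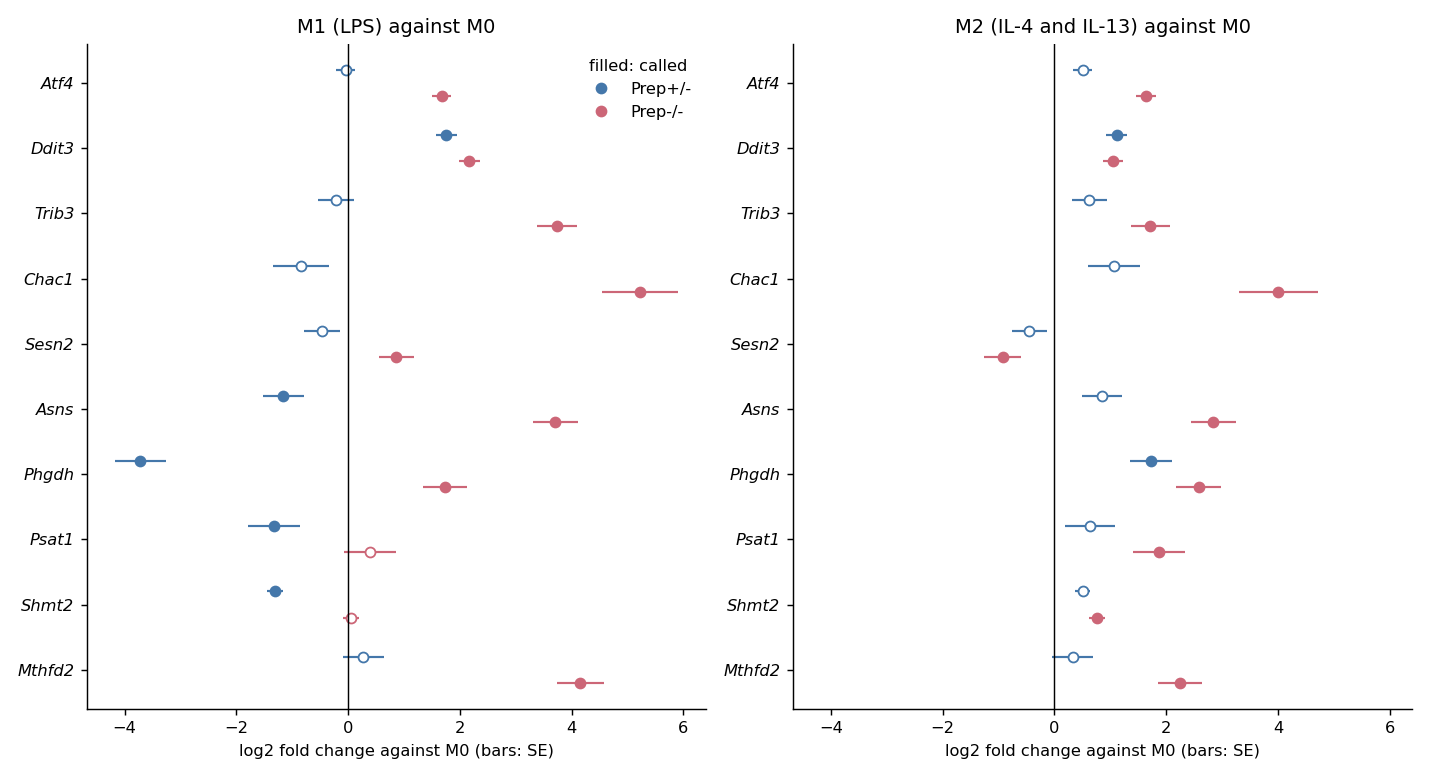
Log2 fold change of M1 against M0 (left) and M2 against M0 (right) for the 10 genes in Prep+/- (blue) and Prep-/- cells (red), with SE bars and filled points for called changes. On the left, 4 filled blue points lie left of 0 and 8 filled red points right of 0, and on the right all filled points except that of Sesn2 in Prep-/- cells lie right of 0.

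Other genes of these pathways were read from 6 lists beside the 10 genes, to be set against the background of the whole table. For M0 that was 15.4% called higher, 17.2% called lower and a median of 0.02. For M1 it was 12.3%, 10.2% and 0.04, and for M2 6.37%, 9.82% and 0.03. In M0, no list's count of calls moved by over 1.5 times when any single library was left out, and no gene named here changed direction under another scaling of the libraries. Where a list below has none called in a direction by edgeR in M0 or M2, DESeq2 called none either, and at an unadjusted p under 0.05 at most 3 genes of that list lay in that direction, apart from the regulators of the stress response in M2. The aminoacyl-tRNA synthetases, which load amino acids onto tRNA and include many ATF4 targets, were also lower in M0. Of 20 tested, 14 were lower and none higher in Prep-/- M0, with a list median of -0.80. Alanyl-tRNA synthetase (Aars, -1.76 ± 0.17), methionyl-tRNA synthetase (Mars1, -1.54 ± 0.20) and tyrosyl-tRNA synthetase (Yars, -1.51 ± 0.16) had the most negative values. In M1, 3 were higher and none lower, namely Mars1 (0.86), Cars (0.80) and Aars (0.76), a share close to the 12.3% of all genes called higher. In M2 2 were lower, Yars (-0.75) and Vars (-0.69), a share close to the 9.82% of all genes called lower. The list medians were 0.03 in M1 and -0.40 in M2. Without the third Prep-/- M2 library 10 were lower in M2, and without the first Prep-/- M2 library 1 was. Over all genes, 1581 and 865 were then called lower, against 1181 with all libraries. Scaling by library totals alone gave 8 lower in M2. In M1, 2 were lower as well by DESeq2, by edgeR with DESeq2-type size factors, or without the first Prep+/- or the third Prep-/- library, and 3 at an unadjusted p under 0.05. In Prep-/- cells 13 of the 20 were higher in M1 than in M0, against 2 lower and none higher in Prep+/- cells. Of all genes, 20.9% were called higher in Prep-/- cells, and 20.9% lower and 16.7% higher in Prep+/- cells. In Prep-/- cells none was lower by edgeR, with 2 at an unadjusted p under 0.05 and 1 by DESeq2. In Prep+/- cells 6 were higher at an unadjusted p under 0.05 and none by DESeq2, and 8 were lower with library totals alone. The contrast of the genotype difference between M1 and M0 was called higher for 10 of the 20, beside 12.0% of all genes. That between M2 and M0 was called higher for 6, beside 4.53% of all genes. This count of 6 ran from 3 to 10 as single libraries were left out. It was 3 without replicate 2 or 3 of Prep+/- M0, replicate 1 or 2 of Prep+/- M2 or replicate 3 of Prep-/- M2, and 10 without replicate 2 of Prep-/- M2. Mars1, which shares sequence with Ddit3, was lower in Prep-/- M0 while Ddit3 was not called.

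Amino acid transporters were lower in 9 of 16 cases and higher in 1 in Prep-/- M0, with a list median of -0.68. The arginine carrier Slc7a1 (-3.56 ± 0.53), the leucine carrier Slc7a5 (-3.47 ± 0.42) and the neutral amino acid carrier Slc1a4 (-2.80 ± 0.45) had the most negative values. Slc7a1 averaged 704 normalized counts in Prep+/- M0 and 59.8 in Prep-/- M0. In M1, 2 were higher and none lower, the glycine carrier Slc6a9 (2.76 ± 0.35) and Slc1a4 (1.59 ± 0.40), while DESeq2 called 1 lower and 3 were lower at an unadjusted p under 0.05. In M2, 4 were lower, among them Slc1a4 (-1.32), Slc7a5 (-1.29) and Slc6a9 (-0.92), and 2 were higher, the cystine carrier Slc7a11 (1.14) and Slc36a4 (0.62). These 6 calls in M2 came down to 3 without the first Prep+/- M2 library, to 2 without Prep+/- replicate 2 or 3 or Prep-/- replicate 2, and to none without Prep-/- replicate 1, and with library totals alone the 2 called higher were lost. The list medians were 0.15 in M1 and -0.06 in M2.

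The further serine, glycine and folate enzymes were lower in 15 of 27 cases and higher in 1 in Prep-/- M0, with a list median of -0.90. Among those lower were Tyms (-2.46 ± 0.26), which makes thymidylate, and Mthfd1l (-2.07 ± 0.18), which makes mitochondrial formate. Psph, which completes serine synthesis after Phgdh and Psat1 and was chosen for mention after its values were seen, was lower too (-0.94 ± 0.21, adjusted p = 0.00176, edgeR). This list parted from the 10 genes in M1, where 10 were lower and 4 higher. Cytosolic Shmt1 (-1.71 ± 0.27), Tyms (-1.68 ± 0.28) and the purine enzyme Atic (-1.30 ± 0.17) were lower, and the glycine cleavage gene Amt (2.36 ± 0.45) was among those higher. In M2, 11 were lower and none higher, among them Tyms (-2.21) and Shmt1 (-2.13), and without the first Prep-/- M2 library 7 were lower. The list medians were -0.48 in M1 and -0.43 in M2.

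Among 17 further ATF4 targets tested, 6 were lower and 2 higher in Prep-/- M0, and the list median was -0.04, with 0.19 in M1 and -0.35 in M2. The proline synthesis genes Pycr1 (-2.35 ± 0.46) and Aldh18a1 (-2.05 ± 0.29) were lower, as was the death receptor gene Tnfrsf10b (-1.55 ± 0.24), while Herpud1 (0.81 ± 0.15) and Bbc3 (0.79 ± 0.22) were higher. In M1, 5 were higher, led by the cytokine gene Gdf15 (2.46 ± 0.29), mitochondrial Pck2 (1.96 ± 0.15) and the mTORC1 restrainer Ddit4 (1.29 ± 0.32). A further 4 were lower, among them Tnfrsf10b (-1.21), Jdp2 (-0.73) and Herpud1 (-0.67). In M2, 5 were lower and none higher, including Pycr1 (-2.02), Tnfrsf10b (-1.53) and Aldh18a1 (-1.02).

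Of 22 regulators of the integrated stress response, 1 was higher and 2 lower in Prep-/- M0, and the list median was -0.10, with 0.18 in M1 and 0.16 in M2. The gene higher was Ppp1r15a (0.95 ± 0.15), whose product GADD34 helps reverse eIF2α phosphorylation, and those lower were eIF2α itself (Eif2s1, -0.90 ± 0.16) and the eIF2B subunit gene Eif2b3 (-1.24 ± 0.27). In M1, 5 were higher, led by Atf5 (1.62 ± 0.17), Nupr1 (1.28 ± 0.22) and Atf3 (1.21 ± 0.24), and Eif2b3 was lower (-0.96 ± 0.26). In M2 none of the 22 was called in either direction by edgeR or by DESeq2, while at an unadjusted p under 0.05 8 were higher and 1 was lower. Without the third Prep+/- M2, the second Prep-/- M2 or the third Prep-/- M2 library, 1, 3 and 2 of the 22 were called. Of 9 relatives of Sesn2, Trib3 and Chac1 and partners of sestrins, 2 were higher in Prep-/- M0, Castor1 (1.15 ± 0.32) and Sesn1 (1.09 ± 0.16), and the list medians were 0.15, 0.36 and 0.13 in M0, M1 and M2 (-0.02 in M2 with library totals alone). In M1, 2 were higher, Depdc5 (0.75) and Wdr24 (0.72), 1 was lower, Trib1 (-1.22), and in M2 none was called by edgeR or by DESeq2, with 1 higher at an unadjusted p under 0.05.

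**Figure D4:**
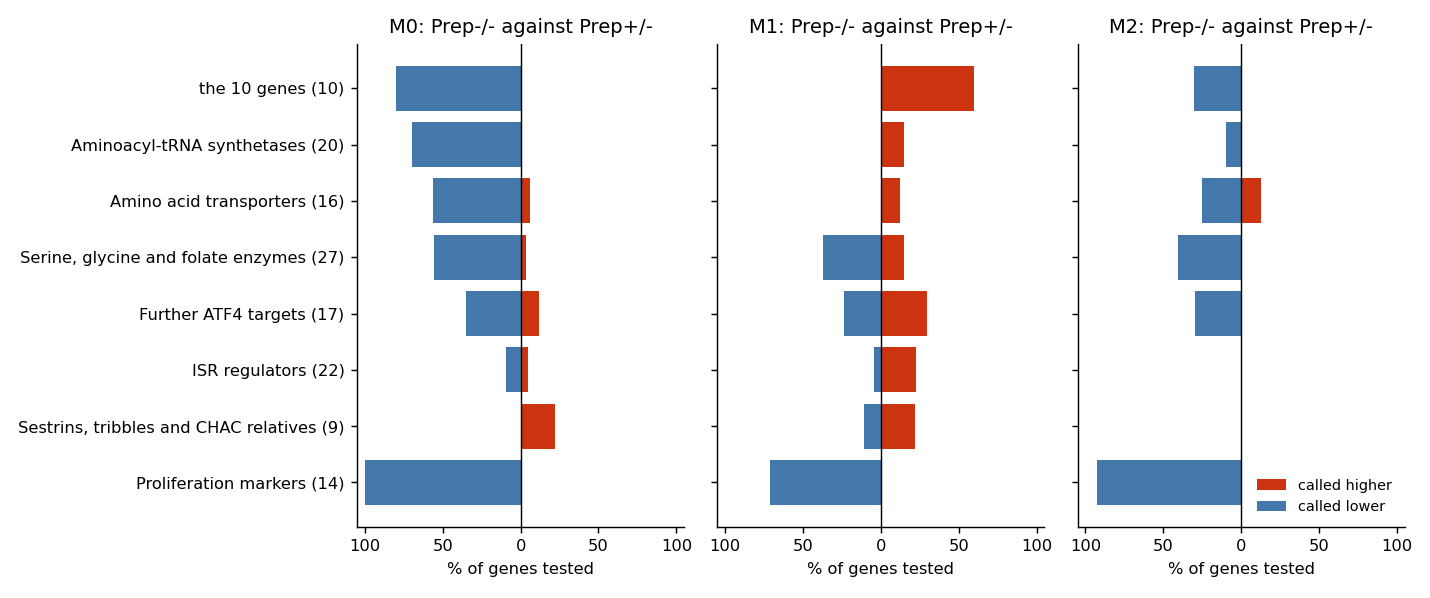
Share of tested genes called higher (red, to the right) or lower (blue, to the left) in Prep-/- cells for the 10 genes and 7 lists, in M0, M1 and M2, with the number tested in parentheses. The 10 genes and the aminoacyl-tRNA synthetases have only blue bars in M0 and only red bars in M1 (by DESeq2, 2 synthetases were also lower in M1), and the proliferation markers have only blue bars in all 3 states. The red share of the synthetases in M1 is close to the 12.3% of all genes called higher there.

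Proliferation markers moved with genotype in every state and are given beside these results because several of the genes serve growing cells. All 14 were lower in Prep-/- M0, 10 of 14 in Prep-/- M1 and 13 of 14 in Prep-/- M2, and none was higher by edgeR, by DESeq2 or at an unadjusted p under 0.05. Their summed level was 3282 to 3557 CPM in Prep+/- M0 and 573 to 1208 in Prep-/- M0, 842 to 897 and 557 to 586 in M1, and 2587 to 2614 and 729 to 1292 in M2. In M1, 6 of the 10 genes were higher in Prep-/- cells, and 10 of the 14 markers were lower in the same libraries. The M1 minus M0 contrast was called higher for 7 of the 14 markers and lower for none, with a median of 1.07. Of all genes, 12.0% were called higher and 9.15% lower in that contrast. In Prep+/- cells all 14 markers were lower in M1 than in M0, beside 20.9% of all genes, and in Prep-/- cells 7 were lower and 1 higher, beside 21.0% and 20.9%. The part of proliferation in the results was not tested.

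The genes with the most similar pattern were found by the root mean square difference of log2 CPM, each gene centred on its own mean, over the 18 libraries and among 6701 candidate genes. Atf4 lay nearest to Cars (0.204), the cysteinyl-tRNA synthetase gene, followed by Snx7 (0.204) and Hspa9 (0.239). Trib3 lay nearest to Aars (0.521), Soat2 (0.546) and Slc6a9 (0.551), and Mthfd2 to Pla2g4a (0.421), Serpinb9 (0.482) and Slc7a1 (0.550). Asns and Chac1 were each other's nearest gene of all (0.467). Beyond each other, Asns lay nearest to Slc7a5 (0.541) and Chac1 to Bcl2 (0.684).

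The other 5 genes had no gene of the lists among the 3 nearest to each outside the 10. For Mthfd2 and Chac1 too, the nearest gene outside the 10 was in none of the lists. Psat1 was nearest to Qpct (0.305) and Shmt2 to Rbbp7 (0.272), and their distance from each other was 0.457. Sesn2 lay nearest to Lysmd3 (0.306) and Ddit3 to Csrnp1 (0.214). On this measure no gene came close to Phgdh, whose nearest was Fyn at 1.05, and no other of the 10 was nearer to it than Asns at 1.3. The distances were not scaled by a gene's own range and grow with it. Phgdh ranged widely, with group means from 59.6 normalized counts in Prep+/- M1 to 2619 in Prep+/- M2. Its large distances therefore do not show that its pattern is unlike that of other genes.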

How the data were processed

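Bulk RNA-seq was done on 18 libraries of Prep+/- and Prep-/- BMDMs in 6 groups of 3. RNA was extracted with TRIzol and libraries were made with a stranded TruSeq mRNA kit. Per the submitters' processing notes and the study's methods, reads were trimmed with Trimmomatic 0.36, aligned to GRCm39 with HISAT2 2.2.1.0 and assembled and counted with StringTie. The authors deposited raw read counts per gene symbol, 1 column for each library, and each column matched 1 sample (0 were left over). The annotation release, the strand setting and the handling of reads with several alignments are not given in the sources used here, so counts of overlapping or near-identical genes are uncertain.

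Genes were filtered with filterByExpr over the 6 groups, which left 12021, and scaled with TMM factors. Group coefficients over all 18 libraries were fitted with the quasi-likelihood test of edgeR 4.0.16 (limma 3.58.1, R 4.3.3), and p-values were adjusted over all genes by Benjamini-Hochberg. A call needs an adjusted p under 0.05 and a change over 1.5-fold. The scripts were tested on simulated data. DESeq2 1.42.0, other scalings and filters, another fold criterion, fits of the compared libraries alone, a replicate block and leaving out each library were alternatives. The library totals of 19068237 to 22598279 counts set the counting precision, and the interval given for Chac1 is an exact 95% interval for counting error. The p-values measure the spread between these libraries, which may be technical.

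The 10 genes were named in full. From each list, up to 3 called genes in each direction with the largest change were named in each genotype comparison, as were the 3 genes nearest to each of the 10. Some genes that this rule names are not reported here. The 10 genes, the lists and the tests were chosen with earlier results of these data known. The replicate numbers were taken to pair libraries where the deviations from the group means correlated over 0.1 for every number, which held for genotype in M2 and for M1 against M0 in Prep-/- cells. Transcript lengths, gene positions and canonical starts came from GENCODE M39 on GRCm39, which matched 15667 of 16314 symbols. RefSeq promoter windows (GRCm38.p6) were placed in GRCm39 by exact sequence match. Near copies were found with BLAST+ 2.17.0, and figures were drawn with matplotlib 3.10.9.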

Additional observations from a re-analysis of the deposited data

Results flagged for a closer look

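The difference between genotypes was tested against that in M0 for each of the 10 genes, and 12 of these differences passed the threshold (log2 scale, edgeR quasi-likelihood test, Benjamini-Hochberg adjusted p). For M1 minus M0 they were those of Atf4 (1.71, adjusted p = 0.000165), Trib3 (3.96, 4.55e-05), Asns (4.87, 3.01e-05), Chac1 (6.07, 0.000167), Phgdh (5.45, 2.53e-05), Shmt2 (1.35, 0.000250), Mthfd2 (3.88, 0.000161) and Sesn2 (1.32, 0.0422). For M2 minus M0 they were those of Atf4 (1.13, 0.00900), Asns (1.99, 0.0255), Chac1 (2.94, 0.0444) and Mthfd2 (1.91, 0.0345). Both sets share the M0 libraries. Of all genes, 12.0% were called higher and 9.15% lower for M1 minus M0, and 4.53% and 4.13% for M2 minus M0. Sesn2 for M1, and Asns, Chac1 and Mthfd2 for M2, lost their calls when certain single libraries were left out. When the test was made against a 1.5-fold change, 0 of the 10 genes were called for M2 minus M0. Groups of 3 are too small for a test of single extreme values.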

How the results depend on the processing

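The number of genes called among the 10 moved by over 1.5 times in 5 of the 9 comparisons. For genotype in M2 (3 called), it was 6 with DESeq2 or library totals, 5 with upper-quartile factors or a filter of 1 CPM in 3 libraries, and 1 with glmTreat against 1.5-fold. For genotype in M1 (6 called) glmTreat gave 3, for M1 against M0 in Prep+/- cells (5 called) 3, and for the M2 minus M0 contrast (4 called) 0. In M2 against M0 of Prep+/- cells (2 called), 4 were called with no fold minimum and 6 in a fit of the compared libraries, and that fit gave 1 for the M2 minus M0 contrast. Leaving out single libraries gave 8 for genotype in M0, 5 to 6 in M1, 1 to 7 in M2, 3 to 5 and 7 to 8 for M1 against M0 in Prep+/- and Prep-/- cells, 2 and 7 to 10 for M2 against M0, and 7 to 8 and 1 to 6 for the 2 contrasts. The cause was not tested.

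With the replicate number as a block, genotype in M2 gave 5 over all 18 libraries and 6 over the compared libraries, M2 against M0 in Prep+/- cells 6 and the M2 minus M0 contrast 2 over the compared libraries. In the comparisons where the numbers did not pair the libraries, they share a number only. No other count moved by over 1.5 times under the block.

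Of 1650 single-gene values under the alternatives, 1508 kept their direction and side of the threshold, 45 gained and 82 lost it, and 15 changed sign, all of uncalled genes. Sesn2 in M0 was at -0.068 with library totals, -0.014 and -0.13 with the replicate block, and from -0.42 to 0.42 without 1 library. Mthfd2 in M1 against M0 of Prep+/- cells was at -0.20 with library totals. Shmt2 in M1 against M0 of Prep-/- cells was at -0.21 with library totals, -0.085 with upper-quartile factors and from -0.098 to 0.14 without 1 library. Without 1 library, Ddit3 in the M2 minus M0 contrast ran from -0.24 to 0.055 and Psat1 for genotype in M1 from -0.28 to 0.076.

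Library totals shifted the median of all genes by -0.14 (genotype in M0), -0.15 (M2), -0.46 and -0.26 (M1 against M0 in Prep+/- and Prep-/- cells), -0.10 (M2 against M0 in Prep-/- cells) and 0.20 (M1 minus M0 contrast), and upper-quartile factors by -0.12 and -0.13 in M1 against M0. The looser letters TGANGNAA occurred for 3 of the 10 genes and for 15.5% of all genes with a RefSeq window, and 26 of 30 nearest genes were shared with a prior count of 5. The GENCODE starts were an alternative chosen after seeing the data. Low counts of Chac1 limit its fold change.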
